A study of Drosophila melanogaster with 4 samples.

Results

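This report covers the HP1a-enriched clusters on 2LHet, 3LHet and 3RHet, called the autosomal sequences below. FlyBase release 5 keeps them apart for heterochromatin mapped to the left arm of chromosome 2 and to both arms of chromosome 3. Heterochromatin of the right arm of chromosome 2 is not part of the set, so the shares below are not of all autosomal heterochromatin. A cluster belonged to the set if its sequence name in the deposited list was one of these. That gave 317 of 3110 clusters in replicate 1, 284 of 3052 in replicate 2 and 205 of 3891 in the authors' series list. The sequences are 368872 bp, 2555491 bp and 2517507 bp long. Clusters were located by chromatin immunoprecipitation and sequencing (ChIP-seq) with the antibody wa191 against HP1a, in nuclei of 3rd instar larvae of the wild-type Drosophila melanogaster strain Oregon-R. There were 2 ChIP libraries and 2 input libraries, and each input was the background of the ChIP library of the same number. The labels do not say whether the replicates came from separate collections, and their spread may be only technical. Larval tissue was homogenised before nuclei were lysed, so each cluster joins all cell types present.

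HP1a is a small chromodomain protein that binds histone H3 methylated at lysine 9, dimerises and recruits further silencing factors. In flies it is the defining protein of pericentric heterochromatin, the repeat-rich and gene-poor chromatin that flanks the centromeres. It also acts on genes that lie inside heterochromatin, some of which need it for their normal expression. Assembled heterochromatin sequence is the part of this chromatin that could be placed on a chromosome. Satellite repeats are mostly missing from it.

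HP1a clusters lay over most of the length of 2LHet, 3LHet and 3RHet. Together 4.18 Mb of the 5.44 Mb was under clusters in replicate 1 and 4.36 Mb in replicate 2, which is 76.8% and 80.1% of the length (mean 78.5% ± 2.4, SD, n = 2). The median width of a cluster was 7906 bp in replicate 1 and 8470 bp in replicate 2. Its median value, read as the log2 enrichment of ChIP over input, was 2.07 in replicate 1, which is 4.19-fold, and 2.12 in replicate 2, which is 4.34-fold. On all other sequences of the lists the median cluster was 2266 bp and 2382 bp wide, with a median value of 1.72 and 1.73. The clusters on 2LHet, 3LHet and 3RHet made up 10.2% and 9.31% of the replicate lists but held 21.9% and 21.4% of their summed width. Differences are given replicate by replicate and none was tested, because 2 libraries allow no exact p under 0.5.

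3LHet was the most fully covered of the sequences, with 80.8% in replicate 1 and 84.1% in replicate 2. On 3RHet the covered share was 74.6% and 77.8%, and on 2LHet, by far the shortest, 63.8% and 68.4%. The order of the sequences was the same in both replicates, and their ranges did not overlap. In the series list it was 88.4% on 3LHet, 83.3% on 3RHet and 72.5% on 2LHet. By length, 3LHet held 49.4% and 49.3% of the covered bases, 3RHet 44.9% in both replicates and 2LHet 5.63% and 5.78%. Replicate 2 covered more than replicate 1 on each sequence, as it did on the chromosomes used for comparison.

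**Figure D1:**
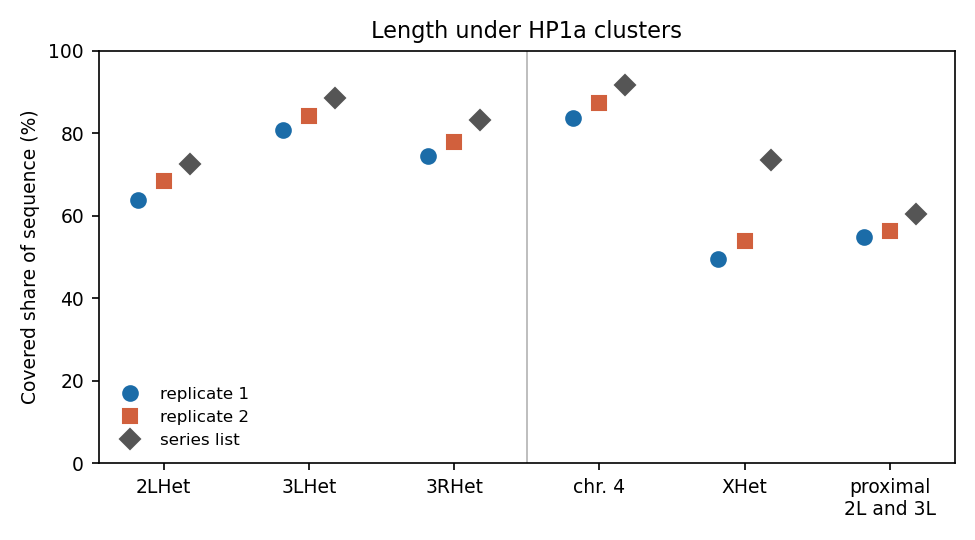
Share of each sequence under HP1a clusters (%), as 1 point for each replicate list and for the series list; the grey line separates 2LHet, 3LHet and 3RHet from the sequences they are compared with. The autosomal sequences lie between 63.8% and 84.1% in the replicates, each below chromosome 4 (83.8% and 87.2%) and above XHet (49.5% and 53.9%) in the same replicate. In the series list XHet (73.6%) lies above 2LHet (72.5%).

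The values of the clusters were high and narrowly spread. Between the quartiles the values ran from 1.79 to 2.31 in replicate 1 and from 1.86 to 2.40 in replicate 2. On 3LHet the median was 2.13 and 2.23, on 2LHet 2.07 and 2.27, and on 3RHet 1.99 and 2.02. 3RHet was the lowest in both replicates, while 2LHet and 3LHet changed places between them. Weak clusters were rare. Of the clusters, 10 of 317 (3.15%) in replicate 1 and 6 of 284 (2.11%) in replicate 2 had a value under 1, that is under 2-fold, against 31.3% and 32.4% of all clusters in the lists. 2LHet had none. At 2 or over, that is 4-fold, there were 183 (57.7%) and 180 (63.4%), against 39.2% and 40.2% of all clusters.

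The weak clusters were concentrated at the high-coordinate end of 3RHet. From 2300001 to 2517507, a stretch picked out after its values were seen, 6 of the 10 weak clusters of replicate 1 and 5 of the 6 of replicate 2 were found. The median value there was 1.20 (18 clusters) in replicate 1 and 1.06 (15 clusters) in replicate 2, against 2.02 and 2.07 on the rest of 3RHet. Cover was also lower there, 57.8% and 67.0%, against 76.1% and 78.8% on the rest. In the last 17507 bp the mean value, weighted by width, fell to 0.98 in replicate 1 and 1.06 in replicate 2, although 79.5% and 90.3% of the bases were covered. The lowest values on 3RHet lay in this stretch too, 0.78 (2474547 to 2476625) and 0.83 (2379978 to 2382957) in replicate 1 and 0.46 (2479881 to 2481222) and 0.62 (2475252 to 2476642) in replicate 2.

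**Figure D2:**
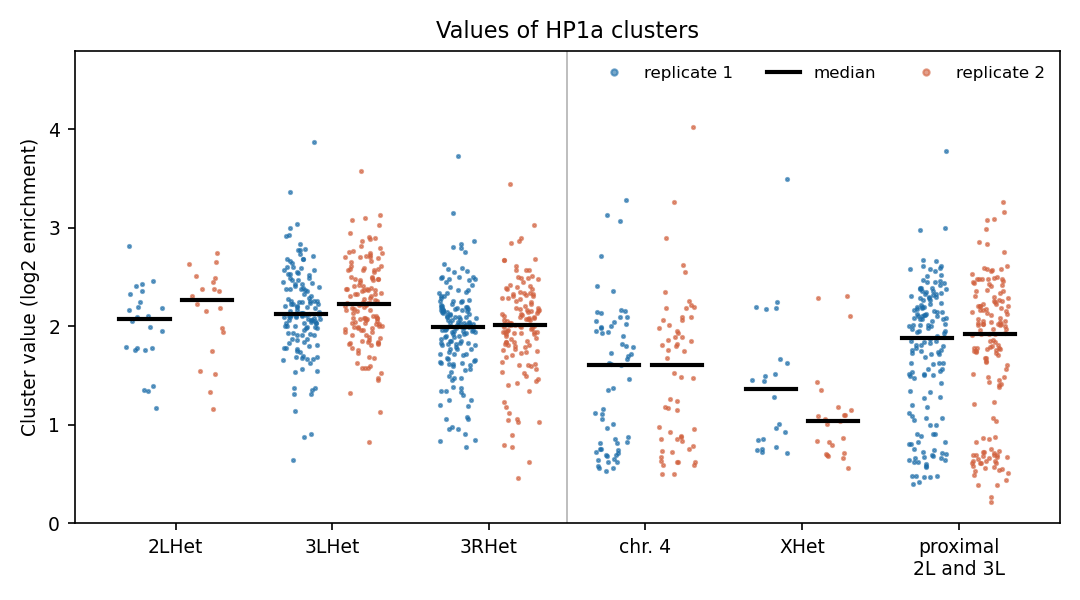
Value of every cluster (log2 enrichment, vertical axis) by sequence and replicate; points are clusters, spread sideways at random, and black bars are medians. Values on 2LHet, 3LHet and 3RHet form 1 band near 2, while chromosome 4, XHet and the proximal 2 Mb of 2L and 3L hold larger shares of clusters under 1.

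Wide clusters spread less in value than narrow ones. Those of 20 kb and over numbered 66 in replicate 1 and 74 in replicate 2, which is 20.8% and 26.1% of the clusters here, against 6.85% and 7.54% of all clusters. They held 56.9% and 67.1% of the summed width. Clusters of this width were not particular to these sequences. On chromosome 4 they were 20 of 62 and 19 of 58 clusters, with 77.9% and 79.0% of the summed width. In the proximal 2 Mb of 2L and 3L they were 37 of 154 and 34 of 149, and on XHet 2 of 22 and 1 of 23. The values of those on 2LHet, 3LHet and 3RHet ran from 1.66 to 2.84 in replicate 1 and from 1.75 to 2.87 in replicate 2, with medians of 2.19 and 2.24. Clusters under 3 kb had medians of 1.79 (73 clusters) and 2.06 (69 clusters) but ran from 0.64 to 3.87 and from 0.46 to 3.57. Both the strongest and the weakest clusters were therefore narrow. The Spearman correlation of width and value was 0.25 in replicate 1 and 0.15 in replicate 2, as a description across 317 and 284 clusters that share a library. On chromosome 4 it was 0.62 and 0.55.

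Exact repeats of a value were also found mainly among narrow clusters. A value that another cluster of the same list held exactly was carried by 22.4% and 21.8% of the clusters, against 31.6% and 28.2% of all clusters. The share was lower on chromosome 4 (6.45% and 5.17%) and in the proximal 2 Mb of 2L and 3L (10.4% and 10.1%). On XHet it was 13.6% and 26.1%. Among clusters under 3 kb on 2LHet, 3LHet and 3RHet it was 60.3% in replicate 1 and 66.7% in replicate 2, and among those of 20 kb and over 4.55% and 4.05%. The commonest such value in replicate 2, 2.57, was held by 6 clusters here and by 21 in the whole list. The number of reads behind a cluster is unknown, and the part of low read numbers in these repeats was not tested.

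**Figure D3:**
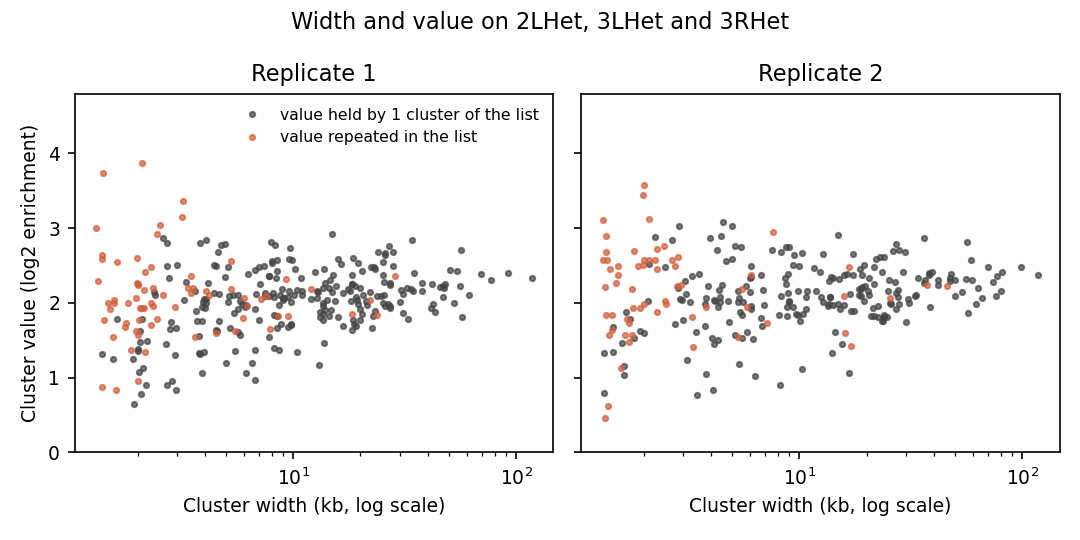
Cluster width (kb, log scale) against cluster value (log2 enrichment) on 2LHet, 3LHet and 3RHet, 1 panel per replicate; orange points are clusters whose value another cluster of the same list holds exactly. The spread narrows with width, from 0.64 to 3.87 under 3 kb to 1.66 to 2.84 at 20 kb and over in replicate 1, and most repeated values are narrow clusters.

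The widest clusters were largely found again in the other replicate, although their ends could differ. On 3RHet the widest cluster of both replicates was the same block, from 1865704 to 1983075 (117 kb) with a value of 2.34 in replicate 1 and from 1865780 to 1983260 (117 kb) with a value of 2.38 in replicate 2. Its borders differed by 76 and 185 bp. The next on 3RHet in replicate 1 ran from 1437295 to 1493132 (value 2.23) and from 1499833 to 1553843 (value 2.42). In replicate 2 they ran from 1496509 to 1577875 (2.41) and from 538657 to 618457 (2.16), a block that held 2 clusters in replicate 1.

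On 3LHet the widest clusters were the same 3 in both replicates. They spanned 348495 to 440631 in replicate 1 and 342626 to 440833 in replicate 2, with values of 2.40 and 2.48. The next spanned 2439431 to 2516363 and 2439352 to 2516417, with 2.31 and 2.36, and the last 1589113 to 1658603 and 1588692 to 1658519, with 2.38 and 2.48. The first of these reached 92.1 kb and 98.2 kb, because replicate 2 also took in sequence that replicate 1 called as a separate cluster. On 2LHet the widest ran from 161948 to 209639 (47.7 kb, 2.25) in replicate 1 and from 150139 to 209632 (59.5 kb, 2.31) in replicate 2. The next on 2LHet ran from 281095 to 306780 with a value of 1.95 and from 270332 to 300378 with 1.75, and the one after from 241378 to 261677 with 2.43 and from 242292 to 261698 with 2.51. Of each of these 18 clusters the other replicate covered at least 95.4%.

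The strongest clusters of 3LHet and 3RHet were less repeatable. On 3LHet the highest values were 3.87 (616606 to 618707) and 3.36 (1040435 to 1043636) in replicate 1 and 3.57 (848708 to 850708) and 3.13 (2553068 to 2555191) in replicate 2. On 3RHet they were 3.73 (2112113 to 2113503) and 3.15 (2221241 to 2224411) in replicate 1 and 3.45 (807918 to 809914) and 3.03 (1988642 to 1991528) in replicate 2. Of these 8 clusters, 5 had no overlapping cluster in the other replicate, and 7 carried a repeated value. Over all clusters here 97.8% and 89.4% overlapped the other replicate. All 8 were between 1391 and 3202 bp wide, and of all clusters under 3 kb here 60.3% and 66.7% carried a repeated value. The 8 were picked as extremes of 1 replicate, and the part of width and of that choice was not tested. On 2LHet the highest values were lower but found in both replicates, 2.82 (44780 to 52685) in replicate 1 and 2.74 (44016 to 52980) in replicate 2 for the same cluster. The next were 2.46 (131255 to 144979) in replicate 1 and 2.65 (306838 to 319534) in replicate 2, of which the other list covered 100% and 98.3%. The lowest values of 2LHet were 1.17 (17961 to 30951) and 1.34 (270034 to 272195) in replicate 1 and 1.16 (212866 to 214506) and 1.34 (17377 to 31317) in replicate 2. On 3LHet the lowest were 0.64 (596069 to 597994) and 0.87 (215193 to 216579) in replicate 1 and 0.83 (214167 to 218275) and 1.13 (1808929 to 1810511) in replicate 2.

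The uncovered sequence was unevenly divided. Replicate 1 left 312 gaps between merged clusters, of a median of 1912 bp, and replicate 2 left 281, of a median of 1651 bp. By number most gaps were short, with 113 and 103 under 1 kb and 134 and 128 from 1 to 5 kb. Those short of 1 kb held only 4.02% and 4.43% of the uncovered length. Gaps of 10 kb and over were few, 25 in replicate 1 and 19 in replicate 2, yet held 48.2% and 47.4% of it. The ends of the sequences added little. The first cluster began at base 283 and 165 on 2LHet, 4 and 10 on 3LHet and 21 and 11 on 3RHet. At the other end 2498 bp and 300 bp of 3LHet were uncovered, and the last clusters of 2LHet and 3RHet ran past the header length, by 275 and 289 bp and by 904 and 907 bp, and were cut at it for covered shares.

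The sequences differed in how their gaps were made up. On 2LHet 62.6% of the uncovered length in replicate 1 and 67.2% in replicate 2 lay in gaps of 10 kb and over, which were 2 in each replicate. On 3RHet it was 51.2% and 54.2%, in 12 and 10 gaps. On 3LHet it was 40.3% and 32.4%, in 11 and 7 gaps, so most of what was uncovered there lay in shorter gaps. The widest gap was 76.9 kb and 74.8 kb on 3RHet, 57.1 kb and 56.8 kb on 2LHet and 47.2 kb and 47.1 kb on 3LHet.

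**Figure D4:**
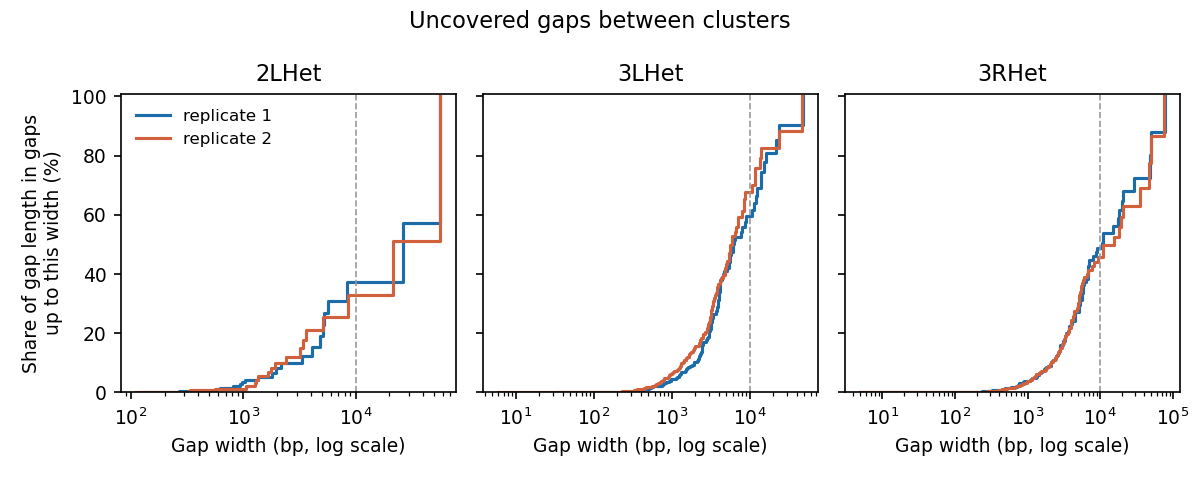
Cumulative share of the gap length (%, vertical axis) held in gaps up to a given width (bp, log scale), 1 panel per sequence and 1 line per replicate; the dashed line marks 10 kb. On 2LHet the widest gap alone, 57.1 kb and 56.8 kb, takes the last large step, while on 3LHet the curves are past 50% before 10 kb.

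The wide gaps of replicate 2 all had a counterpart in replicate 1, but not the reverse. Of the 25 gaps of 10 kb and over in replicate 1, 19 held a run of at least 10 kb that was uncovered in replicate 2 too. The other 6 were 4 on 3LHet and 2 on 3RHet. All 19 of replicate 2 held such a run. By length, replicate 2 left 93.2% of the wide gaps of replicate 1 uncovered, and replicate 1 left 99.2% of those of replicate 2. Sequence uncovered in both came to 1008 kb in 260 stretches, or 18.5% of the length, and 19 stretches of 10 kb and over held 50.1% of it. The widest on 3RHet were 447285 to 521944 (74.7 kb), 316842 to 366844 (50.0 kb) and 2383514 to 2431028 (47.5 kb). On 2LHet they were 62747 to 119568 (56.8 kb), 214507 to 236072 (21.6 kb) and 261699 to 270033 (8.34 kb), which made up 77.6% of what both replicates left uncovered there. On 3LHet they were 2328327 to 2375124 (46.8 kb), 1457262 to 1480699 (23.4 kb) and 1909376 to 1923193 (13.8 kb), which made up 22.4%.

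Most borders of these stretches, which were chosen as uncovered in both replicates, lay close together. Of the 38 borders of the 19 wide stretches, 28 lay within 500 bp of each other in the 2 replicates, with a median distance of 150 bp. The borders of the 56.8 kb stretch of 2LHet differed by 123 and 107 bp. The farthest apart, 6393 bp, was on 3RHet left of the stretch from 2229742 to 2258410, next to which replicate 1 alone had a cluster. Clusters that flanked the wide stretches had a median value of 2.15 in replicate 1 and 2.03 in replicate 2, near the 2.07 and 2.12 of all clusters here. The stretch from 2383514 to 2431028, which lies in the weak end of 3RHet, had flanking values from 0.83 to 1.42. The DNA sequence of release 5 was not used here, so what lies in the uncovered stretches was not analysed, including how much of it could take reads.

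The series list covered little of the wide stretches. It reached 5.41% of their summed length, at most 48.7% of any single one (1746064 to 1756820 on 3RHet) and 0.0299% of the 56.8 kb stretch of 2LHet. Of the stretches under 10 kb it covered 30.7% of the length on 2LHet, 28.7% on 3LHet and 37.5% on 3RHet.

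Cover varied along the sequences more than between the replicates. Over 56 steps of 100 kb (the last of each sequence shorter), the mean cover of the replicates had an SD of 14.9 percentage points between steps, while the replicates differed by a median of 2.68 points within a step. Replicate 2 was higher in 54 of the 56 steps. Both replicates covered at least 90% in 10 steps, 6 on 3LHet and 4 on 3RHet. The fullest was 3LHet from 2400001 to 2500000, with 99.2% and 99.4%, directly beside the step with the widest gap of that sequence, which had 50.7% in both. On 3RHet the step from 1500001 to 1600000 reached 95.8% and 98.5%. The emptiest were neighbours on 3RHet, 300001 to 400000 with 38.6% and 39.6% and 400001 to 500000 with 33.1% and 38.2%. No other step was under 50% in both replicates. Where clusters were called in those steps they were not weak, with width-weighted mean values of 1.88 in both replicates and of 1.94 and 2.09. The strongest step was 3LHet from 1400001 to 1500000, with 2.69 in replicate 1 and 2.81 in replicate 2 at 75.6% and 76.0% cover. The emptiest steps were thus not the weakest, although 3RHet from 2400001 to 2500000 was low in both, with 40.4% and 50.5% cover and values of 1.33 and 1.25.

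The replicates differed by more than 10 percentage points of cover in 5 steps. The largest difference was at the end of 2LHet, from 300001 to 368872, with 67.4% in replicate 1 and 84.0% in replicate 2. Both steps at the start of 3LHet were also among the 5. From 1 to 200000, picked out after its values were seen, replicate 1 covered 49.9% with 18 clusters and replicate 2 covered 62.2% with 24. On the rest of 3LHet the replicates covered 83.5% and 86.0%. Of the 15 clusters of 3LHet found in replicate 2 alone, 9 lay in this stretch. Its clusters were narrow, with a median of 2418 bp and 2276 bp, but not weak, with median values of 2.26 and 2.06.

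Nearly all clusters were found in both replicates. A cluster of replicate 2 overlapped 310 of the 317 replicate 1 clusters (97.8%) by at least 1 bp. In turn 254 of the 284 replicate 2 clusters (89.4%) were met by replicate 1. These shares compare with 87.9% and 81.4% of all clusters in the lists. So much of these sequences was covered that clusters placed without regard to each other would often overlap too. The shared sequence came to 4105 kb, with 73.4 kb in replicate 1 alone and 256 kb in replicate 2 alone. Its share of the combined length, the Jaccard index, was 0.926, with 0.933 on 3LHet, 0.921 on 3RHet and 0.896 on 2LHet.

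Replicate 2 had fewer clusters than replicate 1 and more often joined several into 1. When overlapping clusters of both lists were merged, 259 blocks resulted. In 151 of them 1 cluster of each replicate met, in 41 several of replicate 1 met 1 of replicate 2, and in 13 the reverse was true. A further 17 held several of both, 7 replicate 1 alone and 30 replicate 2 alone. Of the 312 gaps of replicate 1, replicate 2 covered 86 in full, of a median width of 457 bp, and the reverse was true of 32 of 281. 3RHet accounted for 51 of the 86, and its cluster number differed most, 156 in replicate 1 against 129 in replicate 2.

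Clusters found in a single replicate were narrow but not weak. In replicate 1 the 7 such clusters had medians of 2.29 in value and 1610 bp in width, while the 310 shared ones had 2.06 and 8156 bp. In replicate 2 the 30 had medians of 2.17 and 1768 bp, while the 254 shared ones had 2.12 and 9830 bp. A value repeated in the list was carried by 6 of the 7 and 20 of the 30, against 21.0% and 16.5% of the shared clusters, which were wider. Among all clusters under 3 kb here, shared or not, it was carried by 60.3% and 66.7%. On chromosome 4 unshared clusters had medians of 0.63 and 0.62 (4 and 10 clusters), against 1.65 and 1.82 for shared ones, and all had values under 1. In the proximal 2 Mb of 2L and 3L, the arm sequence nearest the centromere, unshared clusters had medians of 0.62 and 0.61 (9 and 21 clusters), against 1.93 and 2.02 for shared ones. On XHet the medians were 1.60 and 0.92 for unshared clusters (2 and 4 clusters), against 1.15 and 1.06 for shared ones.

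Paired clusters differed less in value than neighbouring clusters of the same list. Pairing every replicate 1 cluster to the replicate 2 cluster of largest overlap gave 310 pairs, with 236 clusters of replicate 2. The median absolute difference was 0.15 on the log2 scale, against 0.33 and 0.34 between neighbouring clusters of the same list. For clusters of 20 kb and over it was 0.08, with 0.30 as the largest difference of such a pair. For those under 3 kb it was 0.29, with differences up to 1.78. The pair that differed by 1.78 was the weakest cluster of 3LHet in replicate 1 (596069 to 597994), which lay inside a 39326 bp cluster of replicate 2 with a value of 2.42. Spearman's rho across pairs was 0.77 and Pearson's r 0.77, as a description of pairs that share 2 libraries. The parts used for comparison were closer. The median absolute difference was 0.10 on chromosome 4, 0.09 on XHet and 0.09 in the proximal 2 Mb of 2L and 3L. Their rho was 0.82, 0.94 and 0.86. Replicate 2 was the higher in 204 of 310 pairs (65.8%), by a median of 0.08 over all pairs, and in 19 of 24 pairs on 2LHet.

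**Figure D5:**
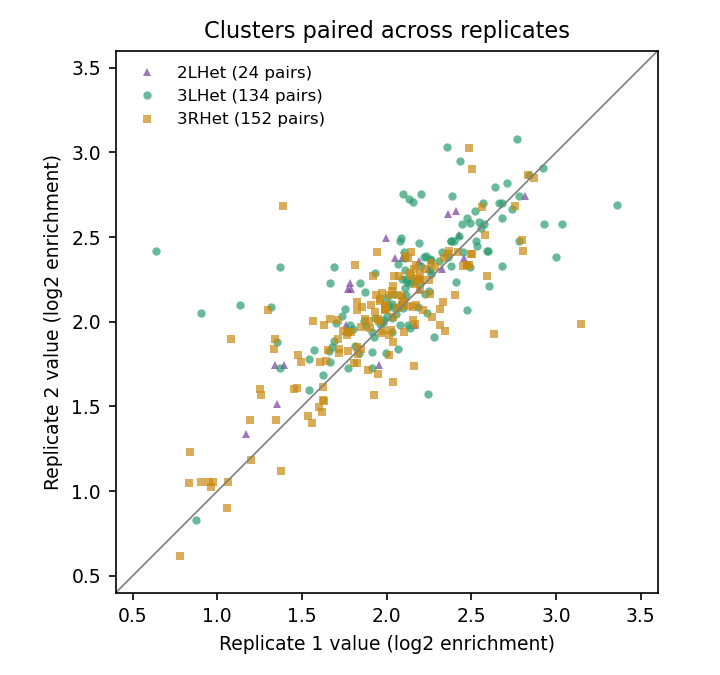
Value of each replicate 1 cluster (horizontal axis, log2 enrichment) against the replicate 2 cluster it shares most bases with (vertical axis, log2 enrichment), by sequence; the line marks equal values. Of the 310 pairs 204 lie above the line, and the pair farthest from it differs by 1.78.

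Chromosome 4, a small chromosome that carries HP1a along most of its length, was covered more fully but less strongly. The covered share was 76.8% and 80.1% on the autosomal sequences, against 83.8% and 87.2% on chromosome 4, a difference of -7.05 percentage points (SD 0.08, n = 2). The order turned round under 1 alternative. When clusters weaker than their list's median were left out, the autosomal sequences were covered over 70.9% and chromosome 4 over 58.4%. That threshold lies above the median value of chromosome 4 and below that of the autosomal sequences. The turn is therefore not separate from the difference in value. The median value was 2.07 and 2.12, against 1.61 and 1.60 on chromosome 4, a difference of 0.49 (SD 0.04, n = 2). Values under 1 made up 3.15% and 2.11% of the clusters, against 35.5% and 36.2% on chromosome 4. By width the contrast was smaller. Clusters under 1 held 0.63% and 0.46% of the summed width, against 8.53% and 7.70% on chromosome 4. The mean value weighted by width was 2.14 and 2.20, against 1.81 and 1.84. Clusters of the autosomal sequences were also more broken up. Of the summed width, 50% lay in clusters of at least 23.7 kb and 27.9 kb, against 40.8 kb and 48.5 kb on chromosome 4, and there were 57.3 and 51.6 gaps per Mb, against 45.1 and 42.2. The widest gaps of chromosome 4, 27.0 kb and 29.8 kb, were shorter than the widest of each autosomal sequence.

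XHet, the short assembled heterochromatin of the X, stood apart from the autosomal sequences in the replicate lists. In the series list this did not hold for cover, with 73.6% on XHet against 72.5% on 2LHet. In the replicates XHet was covered over 49.5% and 53.9%. It had 22 and 23 clusters of a median width of 2543 bp and 2436 bp, against 7906 bp and 8470 bp on the autosomal sequences. Its median value was 1.37 and 1.04, below each of the autosomal sequences in both replicates. Of its clusters 40.9% and 43.5% had values under 1. By summed width XHet was less weak than by cluster number. Clusters with a value of 2 or over held 56.5% and 52.5% of its summed width, against 70.0% and 76.5% on the autosomal sequences. Only 2 and 1 clusters of 20 kb and over held 50.6% and 49.8% of it. The arm sequence in the proximal 2 Mb of 2L and 3L, which also takes in sequence beyond the HP1a block, was nearer in value, with medians of 1.88 and 1.92, and was covered over 54.7% and 56.4%.

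In the series list the autosomal sequences had fewer and wider clusters than in either replicate. Its number of clusters here was 0.647 times that of replicate 1 and 0.722 times that of replicate 2, while on all other sequences the ratios were 1.32 and 1.33. On chromosome 4 the number was also lower, with ratios of 0.758 and 0.810. The median width was 13761 bp, against 7906 bp and 8470 bp in the replicates. Of the 205 clusters, 82 joined several of replicate 1 and 63 several of replicate 2, up to 7 in 1 cluster in both cases. The widest of the list spanned 2373630 to 2516434 on 3LHet (143 kb, value 2.30) and held 5 clusters of replicate 1 and 3 of replicate 2. On 3RHet it spanned 538622 to 666906 (128 kb, value 2.22), with 5 and 2 clusters inside, and on 2LHet 148446 to 209680 (61.2 kb, value 2.29), with 2 and 1. Every cluster of both replicates here overlapped the series list. How the authors combined the replicates is not given in the sources used here.

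Only 25 of the 205 series clusters (12.2%) overlapped neither replicate, against 28.2% of the whole series list. They lay on 3LHet (10) and 3RHet (15), with none on 2LHet. Their median value of 2.05 was near the 2.12 of clusters in both replicates, and they were narrow, 1555 bp against 18137 bp. The widest on 3RHet were 1716440 to 1719832 (value 1.36), 1753974 to 1756682 (1.88) and 2052796 to 2055264 (2.05). On 3LHet they were 1920676 to 1923072 (1.09), 212006 to 213646 (0.44) and 1029414 to 1030878 (2.30). By the way they were chosen, all 6 lay in sequence that both replicates left uncovered. Of these, 4 lay inside uncovered stretches of 10 kb and over.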

How the data were processed

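Both HP1a ChIP libraries have a deposited list of enriched clusters, and a further list covers the series. The submitters' processing notes name Bowtie 0.12.7 as the aligner. Not given in the sources used here are the cluster caller, its threshold and what a cluster's value averages over. Positions count from 1 on FlyBase release 5, per the file headers. The authors' values are read as ChIP over input in log2 units, which the headers do not name. The reading rests on repeated values, of which 77 of 262 in replicate 1 and 79 of 236 in replicate 2 differed from the commonest one by the log2 of a ratio of whole numbers (denominator up to 12, relative tolerance 1e-06), against at most 5 for the natural log or log10. Depth is unknown, so counting intervals cannot be had and the 2 replicates are the measure of precision. Inputs entered only through the authors' calls.

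Overlapping or touching clusters were merged and cut at the header length. Covered shares are of that full length. Gaps are the uncovered runs between merged clusters. A cluster counts as shared if it overlaps the other list by at least 1 bp. In the proximal 2 Mb of 2L and 3L, clusters were taken by their midpoint. Named were the 3 widest clusters, the 2 highest and 2 lowest values of each replicate on each sequence, the 3 widest stretches uncovered in both and the 3 widest series clusters in neither. Stretches of 3LHet and 3RHet named beyond that rule were chosen after their values were seen. The sequences, comparisons and rules were chosen with earlier results of these data known. The merging and gap code was tested on simulated intervals. Genes and DNA sequence are left out, since the available gene table is of Release 6 and builds were not mixed. The tools were matplotlib 3.10.9, scipy 1.17.1, pandas 2.3.3 and numpy 2.4.6 under Python 3.11.15. Alternatives were a value threshold, joining within 1 kb, leaving out repeated values, the series list, a 50% overlap, medians weighted by width, and leaving out either replicate.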

Additional observations from a re-analysis of the deposited data

How the results depend on the processing

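Of 45 alternative values other than leaving out a replicate, 16 stayed within the replicate spread (for the number of gaps, within 1.5 times), 28 moved beyond it and 1 changed sign. Leaving out either replicate cannot move a mean of 2 by more than their SD, so those 20 values say nothing about stability. For the Jaccard index and the paired difference, which have 1 value, the SD over the 3 sequences was the yardstick. The value that changed sign was the covered share minus that of chromosome 4, -7.05 percentage points in the full lists and 12.5 without clusters weaker than their list's median. It was -12.2 without repeated values, -6.86 with clusters joined within 1 kb and -6.79 in the series list. The covered share was 70.9% above that median, 72.8% without repeated values and 85.0% in the series list. The median width was 9778 bp above the median value, 14141 bp after joining, 10490 bp without repeated values and 13761 bp in the series list. Gaps had a median width of 2635 bp, 3248 bp, 2822 bp and 1452 bp in the same order, and joining left 188.5 on average. Weighted by width, the median value was 2.20. The median value minus that of chromosome 4 was 1.24 in the series list. The Jaccard index was 0.850 above the median value and 0.838 without repeated values. No paired analysis was possible because the ChIP and input groups, which share replicate numbers, cannot be compared when the inputs have no list of their own here. Differences between sequences were taken within each replicate. The unknown read numbers and the 2 libraries limit every comparison.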
